A study of Mus musculus with 4 samples.

Results

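The 10 genes described here encode cadherins, their catenins and proteins of the desmosome. They were *Cdh1*, *Cdh3* and *Cdh17* (cadherins), *Ctnnb1* and *Ctnnd1* (catenins), *Dsg2* and *Dsc2* (desmosomal cadherins), and *Dsp*, *Pkp2* and *Jup* (desmosomal plaque). The set was taken by gene symbol, and all 10 were found among the 36144 rows of the count table. The set was chosen on the measured change of *Cdh3* between butyrate and untreated libraries, which was the largest of the 10 at both times, so the size of that change is given as a description. All 10 genes were also among the 13979 genes that had over 10 counts in 2 or more libraries, which are called the tested genes below.

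Cells of an epithelium hold to each other through adherens junctions and desmosomes. In adherens junctions, classical cadherins bind across the gap between cells, and their cytoplasmic tails bind β-catenin and p120-catenin, which connect them to actin through α-catenin and keep them at the membrane. In desmosomes, desmogleins and desmocollins play the part of the cadherins, while plakoglobin, plakophilins and desmoplakin tie them to keratin filaments. E-cadherin is the main classical cadherin of the colonic epithelium, whereas P-cadherin, the product of *Cdh3*, is best known from the basal layer of stratified epithelia and from placenta.

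Bulk RNA-seq was carried out on mouse colonoids, which are organoids grown from the epithelium of the colon. The cultures came from 1 mouse, given by the labels as a WT male aged 24 weeks and by the study's text as a Hes1-GFP reporter mouse, and were used at passage 3. They were left untreated or given 2 mM sodium butyrate, a short-chain fatty acid made by gut bacteria, for 48 h or 72 h. Every culture grew in medium with EGF, Noggin, R-spondin, B27, N2, the GSK3 inhibitor CHIR99021 and the ROCK inhibitor Y-27632. GSK3 marks β-catenin for degradation and ROCK drives the contraction of actomyosin at junctions, so both treated and untreated cultures carried agents that act on this system.

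Each of the 4 conditions had 1 library, so no difference below has a replicate check, and no p-value was computed. Each library held between 20790225 and 24207840 counts. Changes are log2 ratios of normalised counts with 1 added to each, and the range in brackets is an exact 95% interval on the pair of counts that covers counting error only. A gene is called higher or lower by size alone, when its change was at least 2-fold. Markers of colonic epithelium were abundant in every library, with *Epcam* between 25463 and 33929 counts. Shares of mitochondrial counts were between 14.1% and 18.4%.

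At 48 h, *Cdh3* had 12 counts without butyrate and 286 with it. The counts at 72 h were 15 without and 118 with butyrate. Both butyrate libraries were thus far above both untreated libraries, and the lower of the butyrate values was that at 72 h. After scaling, the 4 values were 12.3, 259.5, 14.8 and 127.4 normalised counts. The log2 change with butyrate was 4.29 (3.58 to 5.37) at 48 h, a 19.6-fold difference, and 3.02 (2.32 to 3.99) at 72 h, an 8.12-fold difference. In bulk samples, more RNA per cell and more cells of a type that express the gene cannot be told apart.

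Of the 10 genes, 1 was at least 2-fold higher with butyrate at 48 h, where 6.94% of the tested genes were, and 1 at 72 h, where 4.53% were. In each case it was *Cdh3*, which was also among the 2.55% of tested genes that were at least 2-fold higher at both times. None of the 10 was at least 2-fold lower at 48 h, at 72 h or at both times, against 3.08%, 3.78% and 0.887% of the tested genes. The counts of higher genes follow from the choice of the set on *Cdh3*. With shares this low, none lower among 10 genes is no finding either, and nothing is read from these counts.

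Ranked by its change among all tested genes, *Cdh3* was number 17 at 48 h and number 45 at 72 h, and number 15 by the smaller of its changes. These ranks describe the values that chose the set. Among the 10789 genes with a mean of at least 100 normalised counts, it was number 3 at 48 h and number 6 at 72 h, and number 1 by the smaller of its changes, at 3.02. The next gene on that measure was *Cd74*, the invariant chain of MHC class II, at 2.72. The mean of *Cdh3* itself was 103.5, just inside that limit, which it reached through the butyrate libraries alone. With the limit at a mean of 50, *Cdh3* was number 2 of 11652 genes behind *Ndufa4l2*, a subunit relative of the respiratory chain, at 3.26.

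**Figure D1:**
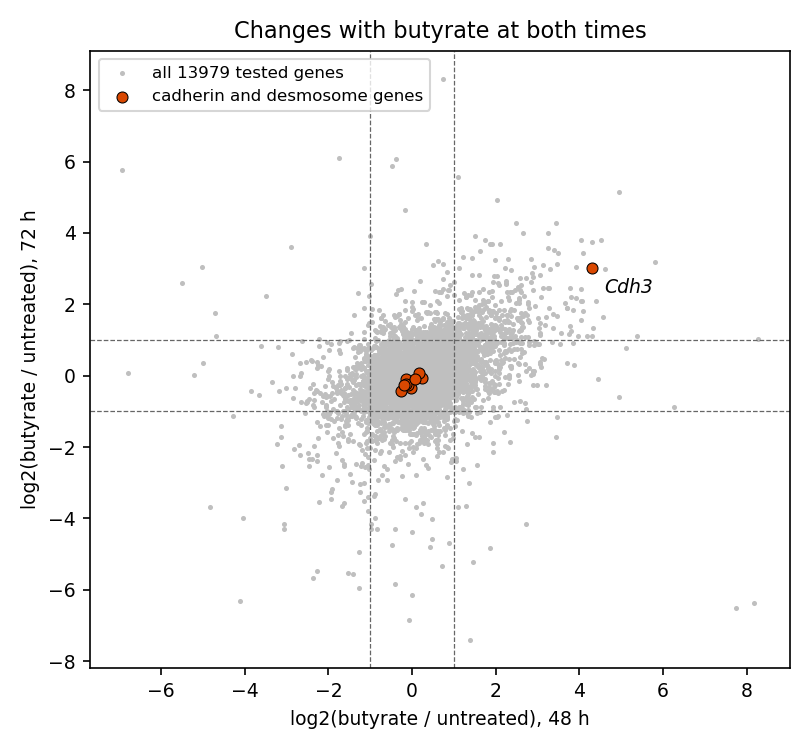
Log2 change with butyrate at 48 h (horizontal axis) and at 72 h (vertical axis) for the 13979 tested genes in grey and the cadherin and desmosome genes in orange, with dashed lines at a 2-fold change. *Cdh3* lies at 4.29 and 3.02, and the other 9 genes lie within 0.5 of 0 on both axes.

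The drop in *Cdh3* between the butyrate libraries was −1.02 (−1.35 to −0.71) from 48 h to 72 h. It was the 1 gene of the 10 past 2-fold in that direction, where 4.95% of the tested genes were. Between the untreated libraries its change was 0.25, with an interval that includes 0 and is wide because both counts were low. No gene of the 10 changed 2-fold with time without butyrate, whereas 4.49% of the tested genes did so in either direction. The change with butyrate at 72 h was smaller than that at 48 h by a log2 difference of −1.27, and a range of −2.41 to −0.13 for it is a normal approximation over the 4 low to moderate counts, not an exact interval.

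*Cdh3* and *Cdh1* lie close together on the plus strand of mouse chromosome 8, at chr8:106510891-106557297 and chr8:106603351-106670246 of GRCm38, with 46053 bases between them that hold *Gm10073* on the minus strand, a gene with at most 9 counts in any library. *Cdh1* encodes E-cadherin. Related genes can share reads in a pseudoalignment, so their sequences were compared. The coding sequences, 2466 and 2652 bases long, were identical at 1604 of 2445 aligned bases (65.6%), and their longest common stretch was 16 bases, in exon 5 of both. It is shown in capitals with its flanks in the plus strand of GRCm38, from chr8:106536827-106536882 and chr8:106653775-106653830, since it is where a read of the rarer gene could most easily be taken for the commoner one.
Cdh3: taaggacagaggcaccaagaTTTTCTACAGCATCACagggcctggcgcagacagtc
Cdh1: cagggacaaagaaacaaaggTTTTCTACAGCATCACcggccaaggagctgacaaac

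The common stretch is shorter than 31 bases, the default word length of kallisto, the pseudoaligner used. Of the 4354 different 31-base words in the annotated transcripts of *Cdh3*, 1 occurred in a transcript of another gene. The *Cdh3* counts were thus assigned on sequence that is almost entirely its own.

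*Cdh1* was the most abundant of the 10 genes in every library. It had 26600 counts without and 35510 with butyrate at 48 h, then 29691 and 25905 at 72 h. Its log2 change was 0.24 (0.22 to 0.27) at 48 h, against −0.07 (−0.09 to −0.04) at 72 h, so the sign differed between the times. *Cdh1* had 2217 counts for each *Cdh3* count without butyrate at 48 h, but 124 with it. At 72 h these ratios were 1979 and 220. As a share of the counts of both genes together, *Cdh3* took 0.0451% (0.0233% to 0.0788%) without and 0.799% (0.709% to 0.897%) with butyrate at 48 h, and 0.0505% (0.0283% to 0.0833%) and 0.453% (0.375% to 0.543%) at 72 h, by the exact Clopper-Pearson interval. Even at its highest, P-cadherin RNA was under 1% of the RNA of this pair.

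*Cdh17* encodes LI-cadherin, a cadherin of the intestinal epithelium with a short cytoplasmic tail that binds no catenin. Its normalised counts were 10513.6 and 10325.8 without and with butyrate at 48 h, then 12237.6 and 9699.8 at 72 h. The highest value was thus the untreated library at 72 h and the lowest the butyrate library of the same time. Its log2 change was −0.03 (−0.06 to 0.01) at 48 h, against −0.34 (−0.37 to −0.30) at 72 h. Per kb of exon, *Cdh1* made up between 70.1% and 74.8% of the 3 cadherins, *Cdh17* between 24.5% and 29.9%, and *Cdh3* 0.0337% and 0.0369% in the untreated libraries and 0.629% and 0.35% in the butyrate libraries of 48 h and 72 h.

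*Ctnnb1* encodes β-catenin, which is both a junction protein and the effector of Wnt signalling. Its normalised counts were 19156.0 and 21521.7 without and with butyrate at 48 h, then 18214.3 and 19113.4 at 72 h. Its log2 change was 0.17 (0.14 to 0.20) and 0.07 (0.04 to 0.10), and it was the 1 gene besides *Cdh3* with a positive change at both times. The butyrate library at 72 h was nevertheless level with the untreated library at 48 h. Of its 31-base words, 13.2% also occur in transcripts of *Ulk4*, which had between 15 and 83 counts, far fewer than *Ctnnb1*.

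*Ctnnd1* encodes p120-catenin, which holds cadherins at the cell surface. It had 10159 counts without and 10411 with butyrate at 48 h, then 11196 and 9642 at 72 h. Its log2 change was −0.14 (−0.18 to −0.10) and −0.09 (−0.13 to −0.05). More than any other of the 10, *Ctnnd1* shares sequence with another annotated gene, since 58.5% of its words also occur in *Gm28635*, which was listed at 0 counts in all 4 libraries.

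Of the 5 desmosome genes, 4 had intervals below 0 at both times, and *Pkp2* had intervals that include 0. Of all tested genes with a mean of at least 1000, 22.0% had intervals below 0 at both times. The promoters of *Dsp* and *Jup* are shown because both had negative changes at both times, beside that of *Ctnnb1*, whose changes were positive. RefSeq windows of GRCm38.p6, the 250 bases before the transcription start, were used for 4 of the 10 genes. No window was used for *Cdh1*, *Cdh3*, *Cdh17*, *Dsg2*, *Dsc2* and *Pkp2*. The genes left out include *Dsc2*, whose changes were the most negative of the 10. Their absence is a limit of the windows used, not a result about their promoters. The printed windows come from chr13:38151044-38151293 (plus strand) for *Dsp*, chr11:100397791-100398040 (minus strand) for *Jup* and chr9:120933150-120933399 (plus strand) for *Ctnnb1*. Capitals mark the GC box, GGGCGG or CCGCCC, the only motif marked, so that both strands are covered.
Dsp: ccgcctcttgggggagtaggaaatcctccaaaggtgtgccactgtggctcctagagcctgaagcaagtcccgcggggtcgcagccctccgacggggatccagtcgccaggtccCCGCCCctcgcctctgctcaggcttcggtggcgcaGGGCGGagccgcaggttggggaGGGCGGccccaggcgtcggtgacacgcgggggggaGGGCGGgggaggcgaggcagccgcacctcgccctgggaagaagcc
Jup: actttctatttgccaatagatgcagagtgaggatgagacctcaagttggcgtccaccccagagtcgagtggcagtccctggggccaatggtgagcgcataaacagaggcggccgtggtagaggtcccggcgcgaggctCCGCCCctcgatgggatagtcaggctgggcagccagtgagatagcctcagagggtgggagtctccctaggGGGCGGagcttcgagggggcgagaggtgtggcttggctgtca
Ctnnb1: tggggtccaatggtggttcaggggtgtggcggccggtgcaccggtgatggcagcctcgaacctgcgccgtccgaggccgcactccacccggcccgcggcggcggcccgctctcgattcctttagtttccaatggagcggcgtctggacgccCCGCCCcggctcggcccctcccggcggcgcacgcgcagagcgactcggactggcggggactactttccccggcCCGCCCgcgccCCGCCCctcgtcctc

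The *Dsp* window held 4 GC boxes, that of *Jup* 2 and that of *Ctnnb1* 3, where 32.7% of 32851 annotated windows of the same length held at least 1. CpG dinucleotides numbered 22, 13 and 35, against a median of 6. A second window of *Ctnnb1*, which overlaps the first, held 43 CpG and the last 2 of the same GC boxes. The 2 windows of *Ctnnd1*, whose changes were negative at both times, are not printed, and held no GC box and 26 and 3 CpG. Windows of 4 genes are too few to relate the motif to the sign of a change, which was not tested. A match is a description of the letters, not of a bound site.

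*Dsg2* and *Dsc2*, desmoglein 2 and desmocollin 2, are the desmosomal cadherins of simple epithelia. The normalised counts of *Dsc2* were 5802.8 and 4793.2 without and with butyrate at 48 h, then 6070.4 and 4484.3 at 72 h. Both butyrate values were below both untreated values, and the log2 change was −0.28 (−0.33 to −0.22) at 48 h, against −0.44 (−0.49 to −0.38) at 72 h, the most negative of the 10 at either time. *Dsg2* had 9787.6 and 9079.2 normalised counts at 48 h, then 11492.2 and 9511.9 at 72 h. Its change was −0.11 (−0.15 to −0.07) and −0.27 (−0.31 to −0.23), and here too both butyrate values were below both untreated ones.

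*Dsp* encodes desmoplakin, which anchors the plaque to keratin. It had 15162.0 and 13664.6 normalised counts without and with butyrate at 48 h, then 18580.6 and 15916.5 at 72 h. Both libraries of 72 h were above both of 48 h, and within each time the butyrate library was the lower, by log2 changes of −0.15 (−0.18 to −0.12) and −0.22 (−0.25 to −0.19). With time alone, the untreated value moved by 0.29 (0.26 to 0.32), more than with butyrate at either time.

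*Jup* encodes plakoglobin, which serves in both kinds of junction. Its normalised counts were 5801.8 and 5075.3 without and with butyrate at 48 h, then 5987.5 and 5044.8 at 72 h. The 2 butyrate libraries lay close together below the 2 untreated ones, with changes of −0.19 (−0.25 to −0.14) and −0.25 (−0.30 to −0.19). *Pkp2*, which encodes plakophilin 2, had 1289.4 and 1349.1 normalised counts at 48 h, then 1417.9 and 1327.4 at 72 h. Its changes of 0.07 (−0.04 to 0.17) and −0.10 (−0.21 to 0.02) both had intervals that include 0.

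**Figure D2:**
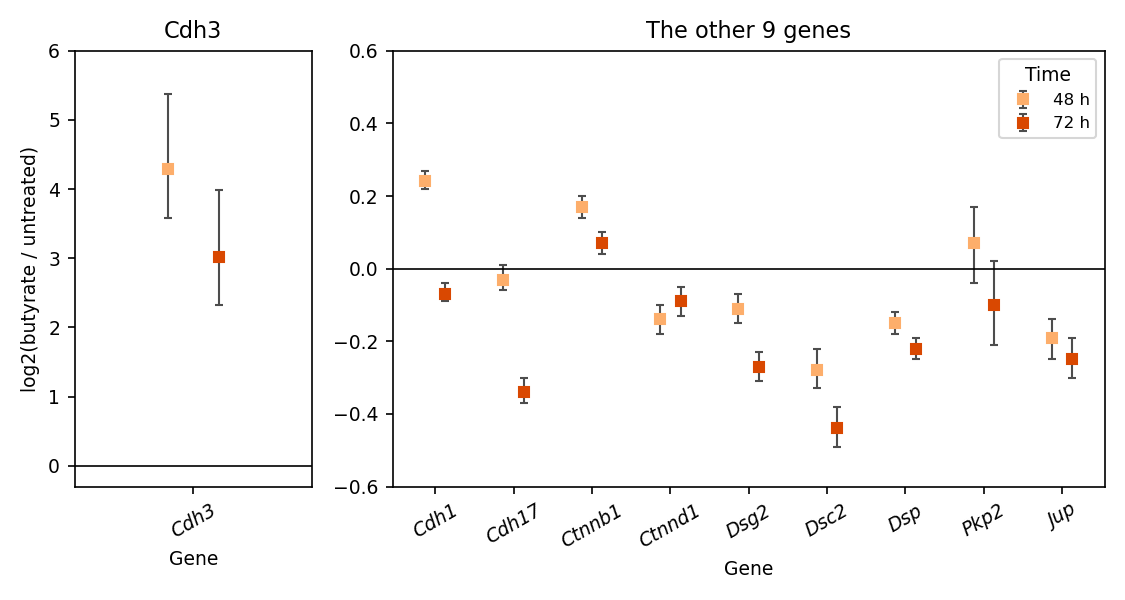
Log2 ratio of butyrate to untreated normalised counts (vertical axis, different scales in the panels) for *Cdh3* and for the other 9 genes at 48 h and 72 h, with exact 95% intervals that cover counting error only. *Cdh3* stood at 4.29 and 3.02, while the others were between −0.44 and 0.24.

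Without *Cdh3*, the changes of the genes ranged from −0.28 to 0.24 at 48 h and from −0.44 to 0.07 at 72 h. Changes were lower than 0 at both times for 6 genes (*Cdh17*, *Ctnnd1*, *Dsg2*, *Dsc2*, *Dsp* and *Jup*), higher than 0 at both for *Cdh3* and *Ctnnb1*, and of opposite sign for *Cdh1* and *Pkp2*. The median of the 10 was −0.07 at 48 h and −0.16 at 72 h, beside −0.01 and 0.00 over all tested genes, and −0.05 and −0.02 over those with a mean of at least 1000. At this depth, small changes clear the counting interval easily. Of the 9 genes with a mean of at least 1000, 5 had intervals below 0 at both times (4 with total count scaling), where 22.0% of the 4649 tested genes of that depth did, and 1 had intervals above 0 at both, where 14.7% did. Of the genes of that depth, 89.2% at 48 h and 94.6% at 72 h lay within 0.5 of 0, as did 9 of the 10.

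The change with butyrate was larger in size than the change of the untreated cultures from 48 h to 72 h at both times for *Cdh3*, *Dsc2* and *Jup*. Of the 9 genes with a mean of at least 1000, it was larger for 5 at 48 h, 4 at 72 h and 2 at both, where 65.5%, 58.2% and 44.9% of the tested genes of that depth were. Between the untreated libraries, 7 of the 9 had intervals above 0 and 1 below 0, against 35.9% and 23.3%, but with total count scaling 4 had intervals above 0 (*Cdh1*, *Cdh17*, *Dsg2* and *Dsp*) and *Dsc2* turned negative. Between the butyrate libraries 3 had intervals above 0 and 4 below 0, against 44.0% and 32.7%. From 48 h to 72 h, the log2 change of *Cdh1* was 0.11 (0.08 to 0.13) without butyrate and −0.20 (−0.23 to −0.18) with it.

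Per kb of exon, the order of the genes was the same in all 4 libraries. From high to low it was *Cdh1*, *Ctnnb1*, *Cdh17*, *Dsp*, *Ctnnd1*, *Dsg2*, *Dsc2*, *Jup*, *Pkp2* and *Cdh3*, and no counting intervals of neighbours in this order overlapped, although without replicates the spread between cultures is unknown. *Cdh1* held between 5946.5 and 7043.6 normalised counts per kb. *Pkp2* held between 240.6 and 264.5. *Cdh3* held 2.8 and 3.38 without butyrate, and 59.2 and 29.1 with it at 48 h and 72 h, so it stayed last where it was highest.

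**Figure D3:**
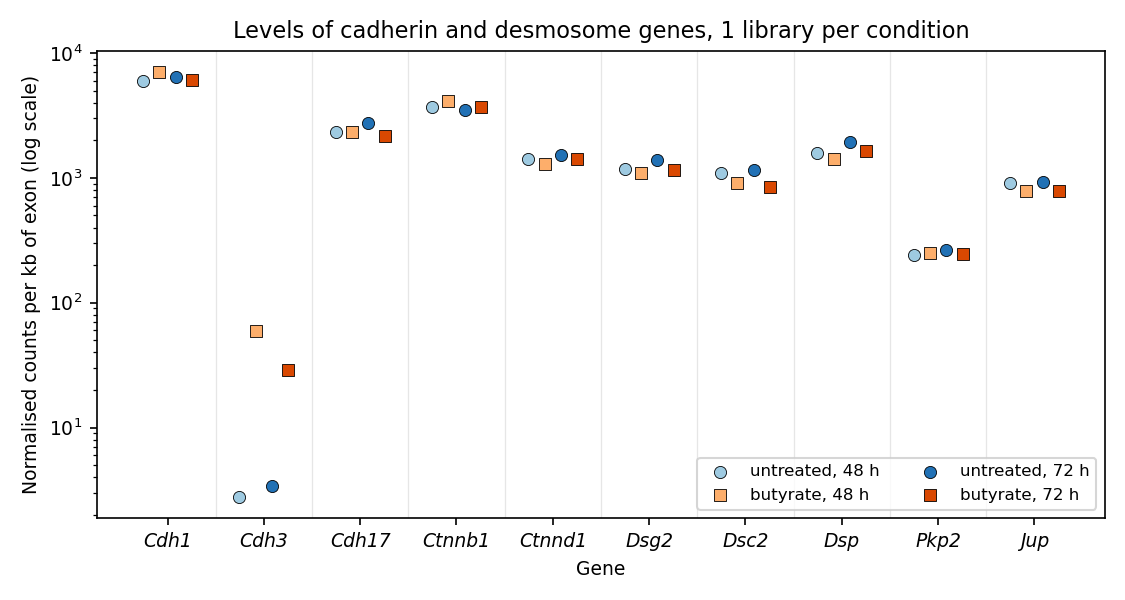
Normalised counts per kb of exon (vertical axis, log scale) of each of the 10 genes in the 4 libraries, with circles for untreated and squares for butyrate. The levels of each gene but *Cdh3* lie close together, and *Cdh3* moves from 2.8 and 3.38 to 59.2 and 29.1.

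Since P-cadherin is known from stratified epithelium, 11 markers of stratified or basal epithelium were set beside *Cdh3*. Of these, 7 were tested, 3 were at least 2-fold higher at 48 h, 2 at 72 h and none lower, beside 6.94% and 4.53% of all tested genes higher and 3.08% and 3.78% lower, with a median change of 0.94 and 0.82. *Krt14*, a basal keratin, had 11, 108, 9 and 27 counts in the order untreated and butyrate at 48 h, then untreated and butyrate at 72 h, with changes of 3.01 (2.23 to 4.17) and 1.61 (0.58 to 2.99). These counts are uncertain, because 17.6% and 10.5% of the *Krt14* words also occur in *Krt16* and *Krt17*, although *Krt16* had at most 13 counts and *Krt17* at most 8 in any library. *Krt4*, a keratin of the suprabasal layers of mucosa, had 213, 1143, 202 and 1127 counts, with changes of 2.25 (2.04 to 2.47) and 2.60 (2.39 to 2.83). The third marker past 2-fold at 48 h was *Dsg3*, the basal desmoglein, at 1.16 (0.62 to 1.76), and its change at 72 h was 0.53 (−0.14 to 1.24).

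Other defining markers of that epithelium were at or near 0. *Trp63*, the transcription factor that defines basal cells, was listed at 0 in all 4 libraries, and *Krt5*, the usual partner of *Krt14*, had at most 4 counts. *Krt13* had at most 5 counts. The summed level of the 11 markers was 2980.7 and 5242.3 normalised counts without and with butyrate at 48 h, then 6105.0 and 4660.4 at 72 h, and most of it was *Sprr1a*, a cornified envelope gene, with changes of 0.53 and −0.90. Without *Sprr1a*, a sum added after seeing the data, it was 489.8 and 1633.1 at 48 h and 428.5 and 1622.2 at 72 h, so that the rest was higher with butyrate at both times, with *Krt4* the most abundant gene in it. Of the 7 tested markers, 5 had positive changes at both times, among them *Ly6d* at 0.94 and 0.93 and *Krt6a* at 0.48 and 0.82, below 2-fold. The part of these markers in the *Cdh3* values was not tested.

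**Figure D4:**
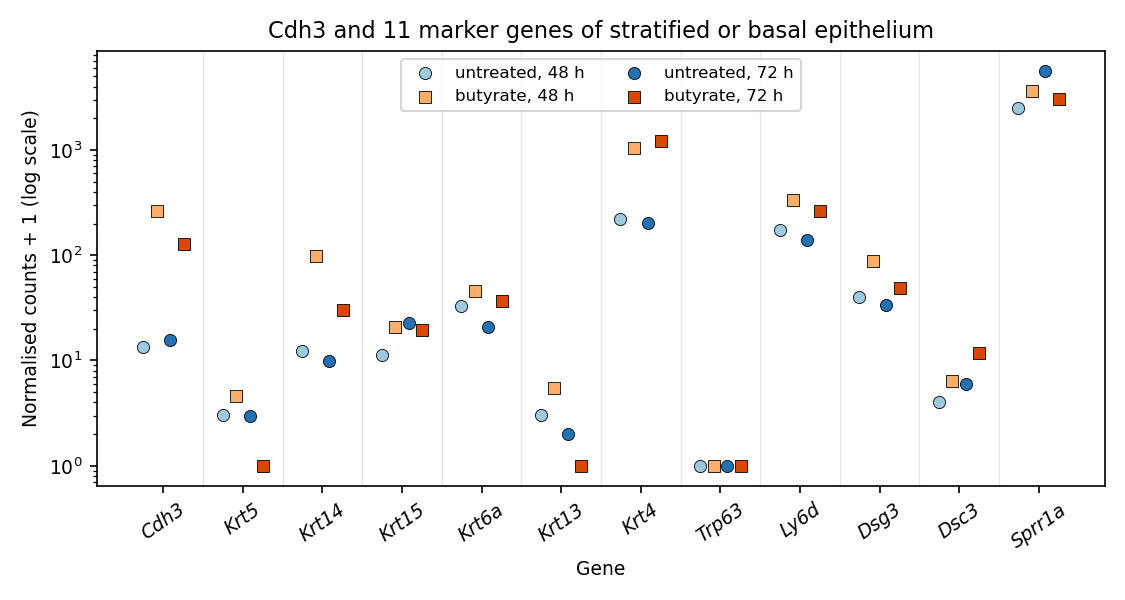
Normalised counts plus 1 (vertical axis, log scale) of *Cdh3* and the 11 markers of stratified or basal epithelium in the 4 libraries. *Krt14*, *Krt4*, *Ly6d*, *Dsg3*, *Krt6a* and *Dsc3* have both butyrate values above both untreated ones as *Cdh3* does, although *Dsc3* had at most 10 counts in any library. The remaining markers do not, and *Trp63* stays at 0 counts.

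Markers of other cell types were low. The summed level of 10 fibroblast and mesenchyme markers was between 225.7 and 301.2 normalised counts, with *Col3a1* and *Lum* at 0. That of 5 endothelial markers was 76.7 and 127.0 at 48 h and 82.9 and 102.6 at 72 h, without and with butyrate, with at most 1 count for the defining gene *Cdh5* and a 2-fold change for *Vwf* at 72 h, at 1.30, and that of 6 immune markers was between 41.7 and 71.3. The 10 markers of colonic epithelium summed to 156696.9 and 161274.9 without and with butyrate at 48 h, then to 166261.7 and 143859.7 at 72 h. None of them changed 2-fold, where 6.94% of the tested genes were higher and 3.08% lower at 48 h, and 4.53% and 3.78% at 72 h. Their median change was 0.02 at 48 h and −0.21 at 72 h, beside −0.07 and −0.16 for the 10 junction genes. The part of these markers in the junction values was not tested.

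Among the 20 other cadherin superfamily genes, 13 were tested. None was 2-fold higher at either time, 3 were 2-fold lower at 48 h (*Cdh26*, *Cdh2* and *Fat4*) and 2 at 72 h (*Cdh26* and *Cdh16*). Over all tested genes, 6.94% and 4.53% were higher and 3.08% and 3.78% lower. *Cdh26*, a cadherin of epithelia, was lower at both, with 31, 3, 22 and 7 counts in the same order of libraries and changes of −3.14 (−5.90 to −1.86) and −1.41 (−2.99 to −0.25). *Cdhr5* and *Cdhr2*, the protocadherins that link microvilli of the brush border, had changes of 0.09 and 0.23 at 48 h and −0.55 and −0.05 at 72 h. The median of the 13 was 0.06 at 48 h and −0.09 at 72 h.

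Of the 20 adherens junction partners, all were tested. *Ctnna2* was 2-fold higher at 48 h and *Ctnnd2* 2-fold lower, and none passed 2-fold at 72 h. Over all tested genes, 6.94% were higher and 3.08% lower at 48 h, and 4.53% and 3.78% at 72 h. Both genes had few counts and kept the sign of their change. *Ctnna2* had 15 and 36 counts without and with butyrate at 48 h, then 25 and 39 at 72 h, with changes of 1.04 (0.19 to 2.07) and 0.75. *Ctnnd2* had 16 and 6, then 23 and 11 counts, with changes of −1.43 (−3.23 to −0.16) and −0.88. *Ctnna1*, which encodes the α-catenin of epithelia, had changes of −0.23 and −0.10. *Actn4*, an actin crosslinker, had 0.13 and −0.10, and *Lima1*, which binds actin at junctions, −0.06 and −0.19. Of the 12 other desmosome and plakin genes, 6 were tested, and *Dsg3* alone was past 2-fold. *Perp*, a membrane protein of desmosomes, had −0.16 and −0.35, *Pkp3* −0.40 and −0.29, and *Pkp1* 0.28 and 0.16. *Dsg1b* and *Dsc1* were listed at 0.

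Of the keratins that desmosomes anchor in simple epithelium, the 3 most abundant had changes within 0.5 of 0, with *Krt8* at 0.09 and −0.17, *Krt18* at −0.17 and 0.15 and *Krt19* at 0.07 and −0.24. *Krt20*, a keratin of differentiated cells, had 0.31 and −0.74 (−0.84 to −0.65). Of the 6, *Krt23* was 2-fold higher at 48 h, at 1.22, and none was at 72 h. Over all tested genes, 6.94% were higher and 3.08% lower at 48 h, and 4.53% and 3.78% at 72 h. Of 6 genes for the processing and turnover of cadherins, *Adam15* was 2-fold higher at 48 h and none at 72 h, and *Adam10*, the main sheddase of E-cadherin, had −0.13 and −0.08. Of 14 regulators, mostly transcription factors, known to lower or sustain *Cdh1*, 11 were tested. None of them changed 2-fold, beside the shares of all tested genes given above, and their medians were −0.25 and −0.18. *Hnf4a* had changes of 0.01 and −0.38, *Cdx2* 0.13 and −0.16, and *Klf4* −0.05 and −0.44, while *Twist1* was listed at 0.

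None of the tested neighbours of the *Cdh3* and *Cdh1* pair changed 2-fold. Of all tested genes, 6.94% were higher and 3.08% lower at 48 h, and 4.53% and 3.78% at 72 h. On the side of *Cdh3*, *Smpd3*, a sphingomyelinase, had changes of −0.41 and −0.47, and *Zfp90*, a zinc finger gene, −0.32 and 0.13. On the side of *Cdh1*, *Tango6*, a gene of the secretory pathway, had 0.17 and 0.08, and *Chtf8*, a gene of sister chromatid cohesion, 0.07 and 0.19. *Has3*, a hyaluronan synthase, had at most 10 counts in any library, and *6030452D12Rik* was listed at 0.

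The genes whose pattern over the 4 libraries was nearest to that of *Cdh3* were *Tmem37*, *Hspb1*, *Palm*, *Arhgap9* and *Ltbp3*. Nearness was the Euclidean distance between log2 levels centred on each gene's mean, over 11649 genes with a mean of at least 50, which leaves out *Cdh3* itself and 2 rows whose names are repeated. The distances were 0.666, 0.678, 0.89, 0.896 and 1.04. *Hspb1*, a small heat shock protein, had changes of 4.38 at 48 h and 2.09 at 72 h. *Tmem37*, a membrane protein, had 3.92 and 2.18, and *Ltbp3*, which binds latent TGF-β, had 3.08 and 2.20. *Palm*, which links membrane and cytoskeleton, had 3.85 and 1.85, and *Arhgap9* had 3.71 and 1.90. All 5 had the larger change at 48 h, as *Cdh3* did, a likeness that the measure itself selects.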

How the data were processed

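The authors deposited estimated counts per gene, made by pseudoalignment with kallisto 0.44.0 and GRCm38.p6 per the submitters' processing notes, summed to genes with tximport and held as whole numbers. No normalisation or gene filter had been applied. Libraries were poly-A selected, and the strand setting was not given in the sources used here. Of the gene names, 26 had become calendar dates and 2 were listed more than once. The members and lists were chosen with earlier results of these data known.

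Size factors (0.978, 1.10, 1.01 and 0.926 for untreated and butyrate at 48 h, then at 72 h) were computed with DESeq2 1.42.0 in R 4.3.3 on genes that had over 10 counts in 2 or more libraries. Ratios used a pseudocount of 1, and the rest was run in Python 3.11.15 with scipy 1.17.1. Library totals were 21567500, 24207840, 23578412 and 20790225 counts in the same order. Levels were divided by the union of exons in GENCODE. Alternatives were TMM factors from edgeR 4.0.16, total counts with and without mitochondrial genes, pseudocounts of 5 and none, thinning to the smallest library, other gene filters and other lengths. Steps were tested on simulated data. Without molecular identifiers, reads cannot be counted as independent molecules. Named genes were the 10, list genes at least 2-fold changed the same way at both times or otherwise the 3 most abundant per kb, the 5 nearest to *Cdh3* and the neighbours of *Cdh3* and *Cdh1*. *Dsg3*, *Krt5*, *Krt13*, *Krt6a*, *Krt20*, *Cdh5*, *Cdh16*, *Fat4*, *Ctnna2*, *Ctnnd2*, *Krt23*, *Adam15*, *Cd74* and *Ndufa4l2* were chosen after their values were seen.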

Additional observations from a re-analysis of the deposited data

Results flagged for a closer look

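Of 60 tested genes among those named, 10 had changes with butyrate of opposite sign at 48 h and 72 h. With the main size factors each had counting intervals that leave out 0, which is what singled them out. Small changes among them can hang on the scaling. *Cdh1* had 0.24 at 48 h and −0.07 (−0.09 to −0.04) at 72 h, but with total count scaling its change at 72 h was −0.02. Among genes of the brush border and cadherin superfamily, *Cdhr5* had 0.09 and −0.55 and *Clstn1* 0.07 and −0.09. *Actn4* had 0.13 and −0.10, and *Cdx2* had 0.13 and −0.16. Of the keratins, *Krt8* had 0.09 and −0.17, *Krt19* 0.07 and −0.24, *Krt20* 0.31 and −0.74, and *Krt18* −0.17 and 0.15. *Sprr1a* had 0.53 and −0.90. The difference between the times was not tested, since each condition had 1 library.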

How the results depend on the processing

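The change of *Cdh3* lay between 3.94 and 4.40 at 48 h and between 2.74 and 3.11 at 72 h over all settings, and the numbers of genes lower (6) and higher (2) at both times were the same in all 6 alternatives that give them. Of 240 recomputed values for single genes, 224 stayed within the counting interval. Of the others, 2 changed sign, both between the untreated libraries with total count scaling, where *Dsc2* was at −0.01 and *Jup* at −0.03. With that scaling, 4 of the 9 deeply counted genes in place of 7 had intervals above 0 between those libraries. For the change with butyrate at 72 h, 5 of the 9 in place of 7 then had intervals below 0. With the same scaling, the median of the 10 genes between the untreated libraries was 0.04 in place of 0.12. The numbers of genes at least 2-fold higher and lower were 970 and 430 at 48 h, 633 and 529 at 72 h, and 356 and 124 at both. With a mean of at least 50 they were 458 and 180, 271 and 187, and 162 and 48. With at least 1 count in any library they were 2332 and 1997, 2253 and 1752, and 675 and 371, because that setting tests other numbers of genes. No model of treatment with time as a block was fitted, since the design planned no test. Depth limits *Cdh3* without butyrate, at 12 and 15 counts.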

Other observations

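Some genes of the lists passed 2-fold at 48 h and not at 72 h, and those given here were picked by that pattern. *Cdh26* passed 2-fold at both times and *Cdh16* at 72 h alone. *Adam15*, *Krt23* and *Fat4* were chosen after their values were seen. *Adam15*, a metalloprotease that can cleave cadherins, had 693 counts without and 1912 with butyrate at 48 h, then 844 and 864 at 72 h, with changes of 1.29 (1.17 to 1.42) and 0.16 (0.02 to 0.30). *Krt23*, a keratin of simple epithelium, had changes of 1.22 and 0.63. *Fat4*, a giant cadherin of planar polarity, had −1.55 and 0.16. *Cdh2*, which encodes N-cadherin, had 28 and 15 counts without and with butyrate at 48 h, then 48 and 22 at 72 h, with changes of −1.02 and −0.97. Whether these changes differ between the times was not tested.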
